A study of Mus musculus with 15 samples.

Results

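Metallothioneins are small cysteine-rich proteins that hold zinc and copper in the cytosol, and zinc crosses membranes through 2 families of carriers, the ZnT proteins (Slc30a genes), which move zinc out of the cytosol, and the ZIP proteins (Slc39a genes), which move it in. The 9 genes described here are the metallothioneins *Mt1* and *Mt2*, the zinc-sensing transcription factor gene *Mtf1*, the exporters *Slc30a1* and *Slc30a5*, and the importers *Slc39a1*, *Slc39a6*, *Slc39a10* and *Slc39a14*. They were chosen by gene symbol, and all 9 were found among the 78317 gene identifiers of the count table and passed the filter on low counts.

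RNA was sequenced from MH-S cells, a mouse alveolar macrophage line transformed with SV40, after 24 h in 5 groups of 3 wells. The M0 cells stayed untreated, the M1 cells received LPS at 1 µg/mL with IFN-γ at 20 ng/mL, and the M2 cells received IL-4 at 20 ng/mL. The CaP and SiO2 groups received microrods built from calcium phosphate or silica nanoparticles with alginate and coated with protamine and carboxymethyl chitosan, at 0.1 mg/mL, from a separately prepared particle batch for each well. All wells held 1 cell passage of the same line, so the spread between the 3 libraries of a group covers wells, not passages. In the CaP and SiO2 groups it also covers particle batches. The p-values measure that spread only.

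Total counts were between 8459643 and 68750050 per library, and replicates differed by more than sampling noise in every group. Of 11 macrophage markers, 8 were above 1 CPM (a library's counts relative to its TMM-scaled size) in every library and only *Mertk* was under 1 CPM in every library. Of 5 alveolar macrophage markers, *Siglecf*, *Car4*, *Pparg* and *Chil3* were under 1 CPM in every library, so the label alveolar macrophage was not borne out by these markers. All markers of T cells, B cells, epithelial cells and fibroblasts were under 1 CPM in every library, as were 2 of 3 endothelial markers. In such bulk samples, fewer cells of a type and less RNA per cell cannot be told apart.

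Cells answer a rise in free zinc through MTF-1, the product of *Mtf1*, which binds metal response elements in promoters and switches on the metallothionein genes and *Slc30a1*. Metallothioneins also respond to glucocorticoids, cytokines and oxidative stress. In macrophages, zinc and copper are handled as part of the antimicrobial response, and bacterial products and cytokines are known to change their carriers.

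Windows before the annotated starts of *Mt1* and *Mt2*, neighbours on mouse chromosome 8, are shown because both genes are known targets of MTF-1. The sequences are the 250 bases before the RefSeq start of each gene (GRCm38.p6, plus strand, chr8:94178839-94179088 for *Mt1* and chr8:94172368-94172617 for *Mt2*), read 5′ to 3′. Capitals mark matches on either strand to the metal response element core, searched as TGCACNC or TGCGCNC.
Mt1: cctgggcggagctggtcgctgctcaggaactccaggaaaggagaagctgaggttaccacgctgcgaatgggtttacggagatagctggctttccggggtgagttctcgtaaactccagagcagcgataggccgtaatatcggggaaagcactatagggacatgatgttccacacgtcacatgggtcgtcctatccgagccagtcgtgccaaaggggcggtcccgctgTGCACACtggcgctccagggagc
Mt2: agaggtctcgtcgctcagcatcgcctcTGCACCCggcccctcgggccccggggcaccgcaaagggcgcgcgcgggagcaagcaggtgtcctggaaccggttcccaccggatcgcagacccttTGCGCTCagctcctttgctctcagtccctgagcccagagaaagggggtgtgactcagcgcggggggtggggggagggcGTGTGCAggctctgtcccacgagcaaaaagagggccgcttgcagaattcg

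The *Mt1* window held 1 match, at bases -23 to -17 from the start. The *Mt2* window held 3, at -223 to -217, -128 to -122 and, on the minus strand, -50 to -44. Of all 32851 promoter windows of this length, 21.4% held at least 1 match and 1.26% held 3 or more. RefSeq windows were matched for 7 of the 9 genes, with 8 windows in all. *Slc30a1* and *Slc30a5* had 1 match each, whereas the windows of *Mtf1*, *Slc39a1* and *Slc39a10* had 0. No window was matched for *Slc39a6* and *Slc39a14*. The IFN-γ-activated site, searched as TTCNNNGAA, occurred once in 1 of the 2 *Slc39a10* windows (7.02% of all windows), and the core of the antioxidant response element, TGACNNNGC, once each in those of *Mt2*, *Slc30a1* and *Slc39a1* (10.2%). Such matches describe letters in a window, and bases after the start were not searched. Whether transcription begins at these annotated starts in MH-S cells was not examined. Elements of the working promoters may therefore lie outside the windows, and the numbers of matches do not rank *Mt1* and *Mt2* by their metal response elements.

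*Mt1* was among the most abundant transcripts and was lower in M1 cells than in each of the other 4 groups. Its levels in the M0 libraries were 1314, 1324 and 1142 CPM. The M1 libraries held 683, 752 and 715 CPM. All M1 libraries lay below all others of the series. In M2 the levels were 1018, 1565 and 989 CPM, in CaP 1568, 1041 and 1055 CPM, and in SiO2 1276, 1106 and 1339 CPM. These 4 groups overlapped, and 1 library each in M2 (replicate 2) and CaP (replicate 1) was well above its fellows.

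**Figure D1:**
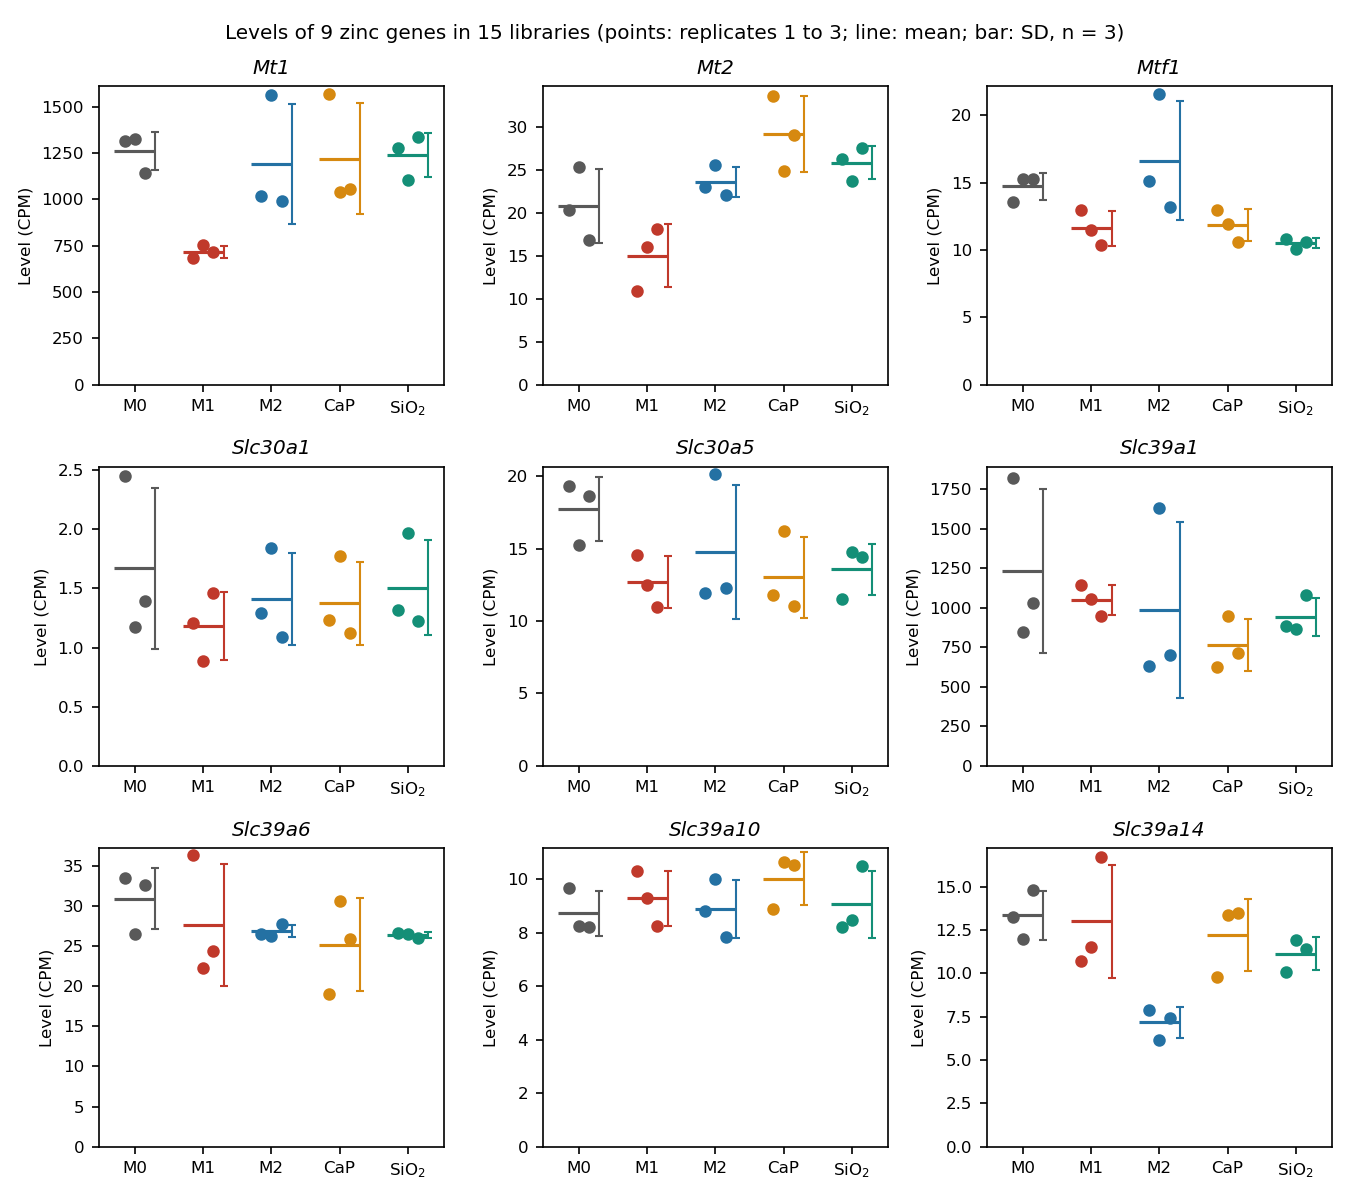
Levels of the 9 genes in CPM (y axes, from 0) in the 5 groups (x axes), with 1 point per library, a line at the mean and a bar for the SD (n = 3). *Mt1* was at 683 to 752 CPM in M1 and at 989 or more in every other library, and *Slc39a14* was at 6.19 to 7.92 CPM in M2 and at 9.82 or more in every other library.

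From M0 to M1, *Mt1* fell from 1260 ± 102 to 717 ± 34.7 CPM (SD, n = 3), a log2 fold change of -0.81 (SE 0.20, 95% confidence interval -1.24 to -0.38, adjusted p = 0.0147 from edgeR). A gene is called here at an adjusted p below 0.05 over all genes tested and a log2 fold change beyond 0.5 in either direction. The call was lost only without M1 replicate 3 (adjusted p = 0.0522) among the 15 fits without 1 library, and DESeq2 also made it (0.00401). Against M2, the log2 fold change of *Mt1* in M1 was -0.73 (SE 0.20, adjusted p = 0.0228), and this call was lost without M1 replicate 1, 2 or 3 (0.0779, 0.0558 and 0.0686) and in a model of the 6 libraries alone (0.103).

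*Mt1* was also lower in M1 than with either microrod type, in the model of all 15 libraries. The log2 fold change was -0.77 against CaP (SE 0.20, adjusted p = 0.0207) and -0.79 against SiO2 (SE 0.20, adjusted p = 0.0204). Without M1 replicate 1, 2 or 3 neither call held (0.0771, 0.0527 and 0.0669 against CaP, and 0.0737, 0.0549 and 0.0691 against SiO2). The call was also lost without CaP replicate 1 (-0.55, adjusted p = 0.0837) or without SiO2 replicate 1 or 3 (0.0682 and 0.0816).

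*Mt2*, the second ubiquitous metallothionein, was present at a far lower level, and its lowest mean was again in M1. The M0 libraries held 20.4, 25.4 and 16.8 CPM and the M1 libraries 10.9, 16.0 and 18.1 CPM. In M2 the values were 23.0, 25.5 and 22.1 CPM. With CaP they were 33.6, 24.9 and 29.1 CPM, and with SiO2 26.2, 23.8 and 27.5 CPM. The M1 libraries lay below all M2, CaP and SiO2 libraries and overlapped those of M0.

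*Mt2* was lower in M1 than with CaP (log2 fold change -0.96, SE 0.21, adjusted p = 0.0069), and this call held in all 15 fits without 1 library (highest adjusted p = 0.0336). It was also lower in M1 than with SiO2 (-0.79, SE 0.21, adjusted p = 0.0270), a call lost without M1 replicate 1 or 2 (0.110 and 0.0636), without SiO2 replicate 1 or 3 (0.0808 and 0.0958) and without a filter on low counts (0.0996). Against M0 the change in M1 was -0.48 (95% confidence interval -0.93 to -0.03, adjusted p = 0.152), and it was not called. Against M2 it was -0.65 with an adjusted p of 0.0513 in edgeR and 0.0232 in DESeq2, and leaving out 1 library at a time gave a call in 5 of 15 fits.

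With the microrods, *Mt2* had log2 fold changes over M0 of 0.48 for CaP (SE 0.19, unadjusted p = 0.0322, adjusted p = 0.236) and 0.31 for SiO2 (SE 0.19, adjusted p = 0.687). Neither was called. Without CaP replicate 1, the highest of the CaP libraries, the former was 0.35 (adjusted p = 0.286). The log2 fold change of *Mt1* over M0 was -0.05 (95% confidence interval -0.45 to 0.36) for CaP and -0.02 (-0.43 to 0.38) for SiO2. CaP and SiO2 were compared at the same mass concentration and time. The paper states that equal mass concentrations of these rod types hold different numbers of rods, so rods per cell were not matched. Between CaP and SiO2 the log2 fold change was -0.02 (-0.43 to 0.38) for *Mt1* and 0.18 (-0.25 to 0.60) for *Mt2*.

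The proportion of the metallothioneins was followed as the ratio of *Mt1* to *Mt2* CPM in each library. In M0 it was 64.5, 52.2 and 68.0. In CaP it was 46.7, 41.9 and 36.3, and in SiO2 48.6, 46.6 and 48.6, both below all M0 libraries. The M1 ratios of 62.5, 47.0 and 39.6 and the M2 ratios of 44.3, 61.3 and 44.7 overlapped those of M0. An exact two-sided permutation test of the log2 ratio against M0 gave p = 0.1 for CaP (log2 difference -0.56) and p = 0.1 for SiO2 (-0.35), the smallest p that 3 against 3 libraries allow, and p = 0.2 for M1 and for M2. Adjusted over the 4 comparisons, every p was 0.2. *Mt1* and *Mt2* are close paralogs, and the division of similar reads between them was made in the authors' Salmon step. The 4 comparisons share the M0 libraries.

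**Figure D2:**
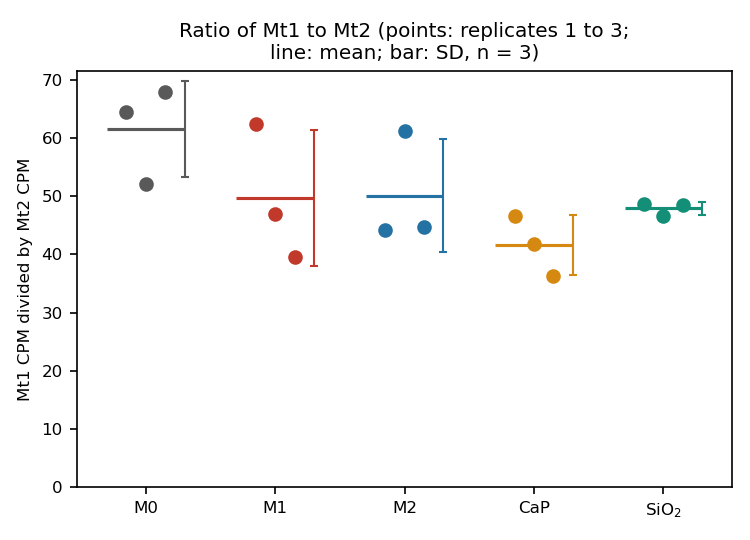
Ratio of *Mt1* to *Mt2* CPM (y axis, from 0) in the 5 groups (x axis), with 1 point per library, a line at the mean and a bar for the SD (n = 3). The mean was 61.6 ± 8.30 in M0, 49.7 ± 11.7 in M1, 50.1 ± 9.71 in M2, 41.6 ± 5.19 with CaP and 47.9 ± 1.18 with SiO2.

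Levels of different genes can be compared per kilobase of the principal transcript. The ranks are among the 10876 genes that passed the filter on low counts and had an annotated principal transcript. *Mt1* stood at 2295 CPM per kilobase in M0, rank 24 from the top. In M1 it was at 1305 CPM per kilobase, rank 61. *Mt2* in M0 was at 40.8 CPM per kilobase, above 83.9% of those genes. *Slc39a1* was the second most abundant of the 9 genes on this scale, at 520 CPM per kilobase in M0 (above 97.9%), and *Slc30a1* the least abundant, at 0.318 CPM per kilobase (above 7.76%).

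*Mtf1* was measured at 13.6, 15.3 and 15.3 CPM in M0. With SiO2 it was at 10.8, 10.1 and 10.6 CPM and with CaP at 13.0, 11.9 and 10.6 CPM, below all M0 libraries in both. The log2 fold change over M0 was -0.48 for SiO2 (SE 0.16, unadjusted p = 0.0159, adjusted p = 0.438) and -0.31 for CaP (SE 0.16, adjusted p = 0.343), and neither was called. The M1 libraries, at 13.0, 11.5 and 10.4 CPM, were also below those of M0 (-0.33, adjusted p = 0.289). In M2, replicate 2 at 21.6 CPM was the highest of the series, beside 15.1 and 13.2 CPM in the others.

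*Slc30a1* encodes ZnT1, the exporter of the plasma membrane and, like the metallothioneins, a target of MTF-1. It was at the edge of detection, with 12 to 93 counts per library. The M0 libraries held 2.45, 1.17 and 1.39 CPM, and M0 replicate 1 was the highest of the series. The other 4 groups had means of 1.18 to 1.51 CPM. None of the comparisons called it, and the sign of both microrod changes (-0.46 for CaP and -0.31 for SiO2) turned without M0 replicate 1 (0.03 and 0.20). Its interval for M1 against M0 reached from -1.45 to 0.16.

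*Slc30a5*, the gene of ZnT5, which loads zinc into the early secretory pathway, had its highest mean in M0, with 19.3, 15.2 and 18.6 CPM. The M1 libraries held 14.5, 12.5 and 11.0 CPM, all below M0, with a log2 fold change of -0.48 (SE 0.23, adjusted p = 0.199). It was called only without M2 replicate 2 (-0.59, adjusted p = 0.0415). Against M0 the value was -0.46 for CaP (adjusted p = 0.282) and -0.39 for SiO2 (adjusted p = 0.612).

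*Slc39a14* encodes ZIP14, an importer of zinc, manganese and iron not bound to transferrin, known to be raised in the liver by inflammation. It was lower in M2 than in M0 and M1. The M0 libraries held 13.3, 12.0 and 14.8 CPM and the M2 libraries 7.92, 6.19 and 7.41 CPM. The M1 libraries held 10.7, 11.6 and 16.7 CPM, with replicate 3 the highest of the series. The CaP values were 9.82, 13.3 and 13.5 CPM and the SiO2 values 10.1, 12.0 and 11.4 CPM, and no library of these 4 groups was as low as any of M2.

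From M0 to M2, *Slc39a14* fell from 13.4 ± 1.43 to 7.17 ± 0.890 CPM (SD, n = 3), a log2 fold change of -0.88 (SE 0.21, 95% confidence interval -1.33 to -0.42, adjusted p = 0.0325 from edgeR and 0.00323 from DESeq2). The direction was the same in all fits, but the call was lost without M0 replicate 1 or 3 (0.0883 and 0.106), without M2 replicate 1, 2 or 3 (0.0679, 0.0520 and 0.104), without a filter (0.161) and in the 6 libraries alone (0.206). In M1 it was higher than in M2 (0.84, SE 0.21, adjusted p = 0.0156), a call lost without M1 replicate 3 (0.0844), M2 replicate 2 (0.0527) or M2 replicate 3 (0.0518), without a filter (0.0957) and in the 6 libraries alone (0.105). M2 was not called against CaP (-0.75, adjusted p = 0.0618) or SiO2 (-0.62, adjusted p = 0.177).

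*Slc39a1*, the gene of the plasma membrane importer ZIP1, varied widely between replicates. The M0 libraries held 1820, 843 and 1027 CPM, and the M2 libraries 633, 1629 and 701 CPM. With CaP it was at 627, 946 and 714 CPM. The first M0 and the second M2 library stood far above the rest, and the log2 fold change of -0.69 for CaP against M0 (SE 0.28, unadjusted p = 0.0330, adjusted p = 0.238) was -0.32 without M0 replicate 1 (adjusted p = 0.535). The M1 values of 1143, 1054 and 950 CPM and the SiO2 values of 881, 863 and 1082 CPM lay inside the M0 range.

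*Slc39a6* and *Slc39a10* encode ZIP6 and ZIP10, related importers of the plasma membrane that can form a complex. *Slc39a10* ranged from 7.83 to 10.7 CPM over all 15 libraries, with group means of 8.73 to 10.0 CPM. *Slc39a6* ranged from 19.1 CPM (CaP replicate 1) to 36.4 CPM (M1 replicate 1). Neither gene was called in any of the 6 comparisons. The gene body of *Slc39a6* overlaps that of *Elp2* on the opposite strand, which had up to 4605 counts in a library. Reads from any exon bases that the 2 genes share cannot be told apart without strand, and whether their exons overlap was not examined. The same holds for *Mtf1* and *1110065P20Rik* (up to 590 counts), *Slc30a1* and *1700034H15Rik* (up to 30 counts) and *Mt2* and *Gm45774* (up to 55 counts).

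Counted over all 9 genes, 1 was called between M1 and M0 (*Mt1*, lower), where 14.1% of all 16654 genes tested were called and 4.37% were called lower. Between M2 and M0, 1 was called (*Slc39a14*, lower), against 4.13% of all genes, and 2.13% called lower. Between M1 and M2, 2 were called (*Mt1* lower, *Slc39a14* higher in M1), against 16.1%. In M1, 2 of 9 were called lower than with CaP (*Mt1* and *Mt2*), where 3.54% of all genes were called lower, and the same 2 were called lower than with SiO2, where the share was 2.79%. DESeq2 called 1, 1 and 3 of the 9 in the first 3 comparisons, with *Mt2* as the additional gene between M1 and M2. Over all genes, DESeq2 called 2794, 955 and 2906 in these comparisons.

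With the microrods, edgeR and DESeq2 called 0 of the 9 genes in each of the 3 comparisons, and edgeR called 0 in every fit without 1 library. At an unadjusted p below 0.05, 2 genes passed between CaP and M0 (*Mt2* and *Slc39a1*), 1 between SiO2 and M0 (*Mtf1*) and 0 between CaP and SiO2. Of all 16621 genes tested in the model of the 9 M0, CaP and SiO2 libraries, edgeR called 0.409%, 0.0602% and 0.0241%. At an unadjusted p below 0.05, 18%, 9.27% and 1.87% passed in edgeR. Over all genes, DESeq2 called 608, 123 and 15. The median log2 fold change of the 9 genes was -0.30, -0.26 and -0.02, beside 0.06, -0.02 and 0.03 over all genes tested. In M1 and M2 against M0 it was -0.33 and -0.20, beside -0.01 and 0.07. All comparisons with M0 share its libraries, so these medians are not independent of each other.

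**Figure D3:**
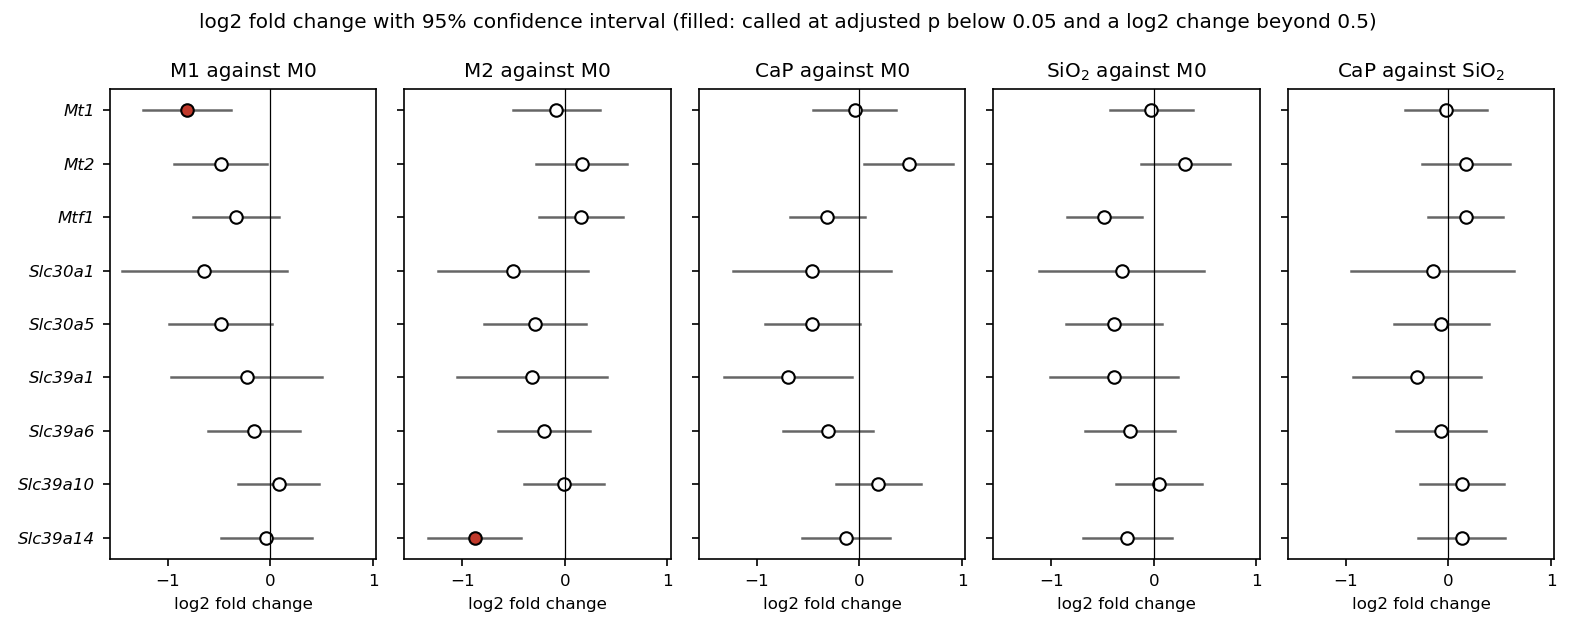
log2 fold changes (x axes) of the 9 genes (y axis) in 5 comparisons, as points with 95% confidence intervals from edgeR, filled where the gene was called. *Mt1* in M1 against M0 (-0.81) and *Slc39a14* in M2 against M0 (-0.88) are the filled points, and all 27 microrod points are open.

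The 5 group means of each gene were put in order and neighbours in that order compared, which gave 36 pairs. Only 1 was called, *Mt1* in M1 below *Mt1* in M2, and 0 were called without any one of the M1 libraries. The order came from the same libraries, so neighbours had close means by construction, which keeps calls among them few. Called pairs further apart in the order, such as *Slc39a14* in M2 and M0, were not among the 36. *Mt1* ran from M1 through M2, CaP and SiO2 to M0, and *Mt2* from M1 through M0, M2 and SiO2 to CaP. The means of *Mtf1* rose from SiO2 through M1, CaP and M0 to M2, those of *Slc39a1* from CaP through SiO2, M2 and M1 to M0, and those of *Slc39a14* from M2 through SiO2, CaP and M1 to M0. Pairs that did not pass the test may still differ by less than these 3 libraries can show.

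The genes whose pattern over the 15 libraries was nearest to *Mt1* were *Tmem107*, *Svbp* and *Cnpy2*, with root mean square differences of 0.11, 0.12 and 0.14 in centred log2 CPM, where the median of 9890 genes was 0.52. *Mt2* stood at rank 232 in this order. For *Mt2* the nearest genes were *Neurl2* (0.18), *Trem2* (0.20) and *Fxyd5* (0.20), and *Mt1* had rank 42. For *Slc30a1* they were *Zdhhc21*, *Ccnl1* and *Gm14117* (each 0.24), and for *Slc39a14* *Arl6* (0.19), *4632427E13Rik* (0.19) and *Tcf12* (0.20). A gene at a constant level would differ from *Mt1*, *Mt2*, *Slc30a1* and *Slc39a14* by 0.36, 0.39, 0.35 and 0.37, the spread of each of these genes itself. The libraries' common depth and scaling enter all of these values.

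Of 21 other zinc genes (the remaining Slc30a and Slc39a carriers, *Tmem163*, *Mt3* and *Mt4*), 11 could be tested. Of the other 10, *Slc39a5* had 1 to 31 counts per library, and the rest had 8 or fewer in every library. None was called by edgeR between M1 and M0 (3 at an unadjusted p below 0.05, and *Slc39a11* alone in DESeq2, adjusted p = 0.0432), between M2 and M0 (4 unadjusted, 0 in DESeq2) or in the microrod comparisons with M0 (3 unadjusted for CaP and 2 for SiO2, 0 in DESeq2) and with each other (0 and 0). Between M1 and M2, edgeR called 2 of the 11, both higher in M1, where it called 16.1% of all genes tested and 10.6% higher. DESeq2 called these 2 genes and *Slc30a4*, which was lower in M1 (log2 fold change -1.05, adjusted p = 0.0398 in DESeq2, and -0.97, adjusted p = 0.0717 in edgeR).

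One was *Slc39a4*, the gene of ZIP4, which takes up zinc in the intestine. It was at 10.7, 14.6 and 17.6 CPM in M1 and at 5.94, 2.24 and 3.66 CPM in M2, a log2 fold change of 1.82 (SE 0.33, adjusted p = 0.00184). The M0 libraries lay between these groups at 5.45, 10.7 and 7.41 CPM and overlapped both. The other was *Slc39a2*, with 6, 7 and 8 counts in M1 and 1, 0 and 5 in M2 (log2 fold change 3.06, SE 0.58, adjusted p = 0.00134), counts too low for the size of the change to be firm.

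Of 8 copper genes, all were tested. *Slc31a2*, the gene of the copper transporter CTR2, was higher in both M1 and M2 than in M0. It stood at 16.5, 28.4 and 26.3 CPM in M0, at 63.8, 78.1 and 91.4 CPM in M1 and at 87.6, 78.8 and 64.3 CPM in M2, with no overlap to M0. The log2 fold changes were 1.72 (SE 0.22, adjusted p = 1.36e-04) and 1.70 (SE 0.22, adjusted p = 4.90e-04), the latter at an adjusted p of 0.0549 in the 6 libraries alone. M1 and M2 did not differ beyond their spread in this gene (0.02, adjusted p = 0.964). With the microrods it was at 21.2 to 31.2 CPM and was not called.

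*Atp7b*, the gene of a copper-exporting ATPase, was lower in M1 (1.46, 0.820 and 0.194 CPM) than in M0 (6.16, 2.28 and 4.05 CPM), with a log2 fold change of -2.35 (SE 0.57, adjusted p = 0.0133). The M1 values rested on 17, 12 and 2 counts, too few for the size of the change to be firm. The call was lost without M0 replicate 1 (0.0841) or M1 replicate 2 or 3 (0.0582 and 0.0577). Between M1 and M2, *Cox17*, which carries copper to mitochondria, was higher in M1 (0.85, SE 0.22, adjusted p = 0.0191) and *Atox1*, the copper chaperone of the ATPases, was lower (-0.62, SE 0.16, adjusted p = 0.0194). The call of *Cox17* was lost without M1 replicate 1 or 2 (0.0579 and 0.0549), without M2 replicate 1 or 3 (0.0850 and 0.0730) and in the 6 libraries alone (0.0834), and that of *Atox1* without M1 replicate 1, 2 or 3 (0.0697, 0.0518 and 0.0566) and in the 6 libraries alone (0.0559). DESeq2 also called *Atp7b* lower in M1 than in M2 (-1.97, adjusted p = 0.00533), which edgeR did not (-1.76, adjusted p = 0.0617). In total edgeR called 1 copper gene higher and 1 lower in M1 against M0, 1 higher in M2 against M0, and 1 higher and 1 lower in M1 against M2. Of all genes tested, edgeR called 14.1%, 4.13% and 16.1% in these 3 comparisons. In the microrod comparisons edgeR and DESeq2 called 0 (0 at an unadjusted p below 0.05).

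**Figure D4:**
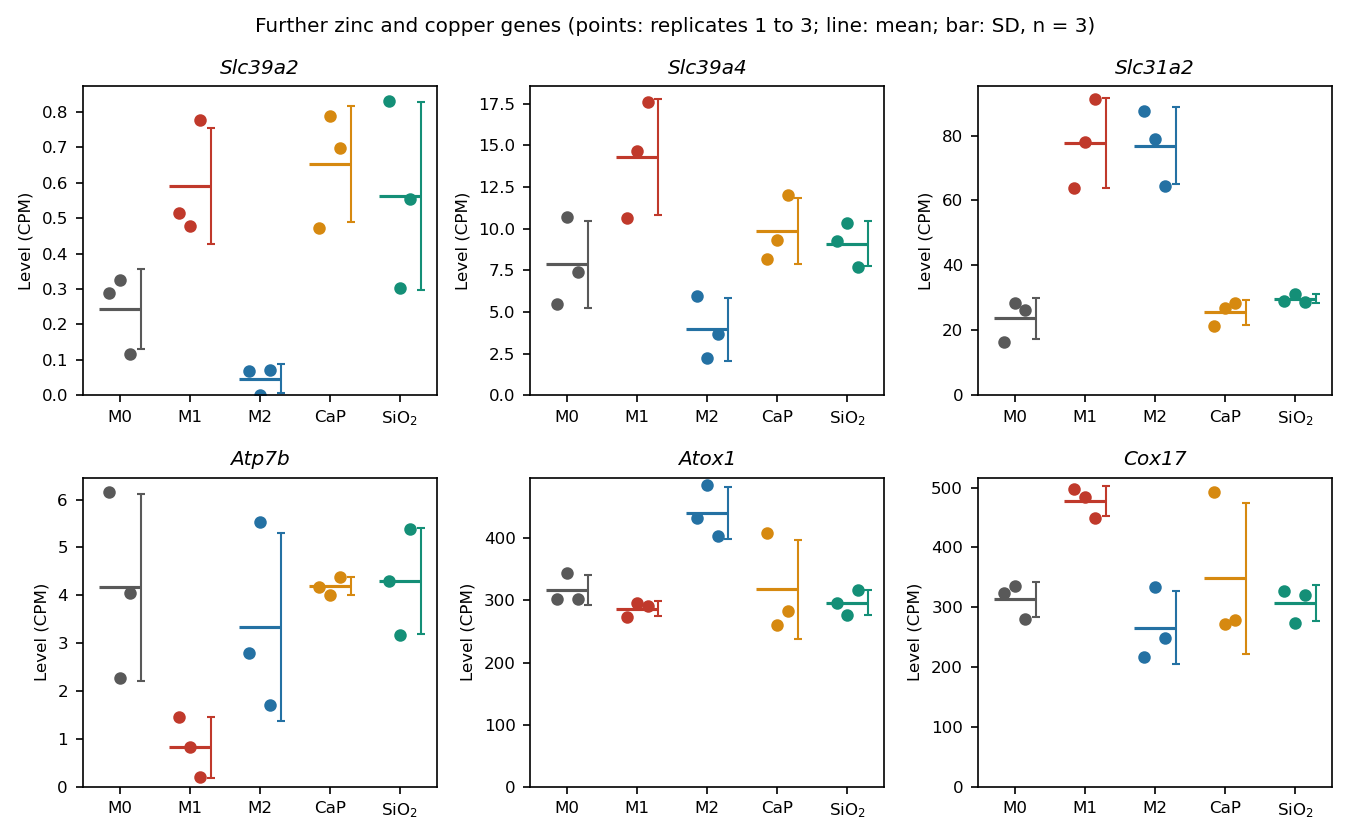
Levels in CPM (y axes, from 0) of the 2 zinc and 4 copper genes called outside the 9 genes, in the 5 groups (x axes), with 1 point per library, a line at the mean and a bar for the SD (n = 3). *Slc31a2* was at 63.8 CPM or more in every M1 and M2 library and at 31.2 CPM or less in all others.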

How the data were processed

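The authors made Smart-seq2 libraries, which use no molecular identifiers and do not mark strand, aligned the paired reads with STAR, quantified them with Salmon (GRCm39 in the submitters' processing notes) and deposited a table of counts without normalization. The whole-number counts may be rounded estimates. The confidence intervals cover the spread between wells, and in the CaP and SiO2 groups between particle batches, beside counting error, and not passages. Symbols were given to 51487 of 78317 identifiers and lengths were taken from an annotation of another build, GRCm38, used for names and lengths only.

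All tests ran in R 4.3.3, with edgeR 4.0.16 (filterByExpr by group, TMM, quasi-likelihood test, Benjamini-Hochberg adjustment over all genes tested), limma 3.58.1 and, as an alternative, DESeq2 1.42.0. Calls required an adjusted p under 0.05 with a log2 fold change beyond 0.5 in either direction. M1 and M2 were tested in a model of all 15 libraries (16654 genes) and the microrod groups in one of 9 libraries (16621 genes). The scripts were checked on simulated data.

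The 9 genes, the lists and the tests were chosen with earlier results of these data known. Named are all 9 genes, the other zinc and copper genes called in any of the 6 comparisons, and for 4 genes the 3 most alike with a mean of at least 5 CPM, by the root mean square difference of centred log2 CPM (prior count 2). *Slc39a11* and *Slc30a4*, called by DESeq2 alone, and *Slc39a5* were named after their values were seen. Deviations of same-numbered libraries from their group means correlated above 0.1 for all 3 numbers in M0 with M1 (0.206 to 0.292) and in M2 with SiO2 (0.128 to 0.506), and not in the other 8 pairs of groups. All 3 were negative in M0 with M2 (-0.704 to -0.0572) and in M1 with M2 (-0.298 to -0.113). These values cannot decide whether the libraries were paired. Alternatives were DESeq2, its size factors, no filter, at least 10 counts in every library, a replicate block, no fold threshold, other libraries in the model and each library left out. The legacy quasi-likelihood and the alternatives for M1 against CaP and SiO2 were added after seeing the data.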

Additional observations from a re-analysis of the deposited data

How the results depend on the processing

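Every call of *Mt1* and *Mt2* in M1 against CaP held in the alternatives other than leaving out a library, and the microrod counts of 0 among the 9 genes were 0 in every alternative. Without a filter, the number of the 9 genes called was 0 in M2 against M0, 1 in M1 against M2 and 1 in M1 against SiO2, and with only the 6 libraries compared it was 0 in M2 against M0 and 0 in M1 against M2. Fewer libraries give fewer residual degrees of freedom, and other causes were not tested. Without 1 library the number ranged from 0 to 2 in M1 against M0, 0 to 1 in M2 against M0, 1 to 3 in M1 against M2, 1 to 2 in M1 against CaP and 0 to 2 in M1 against SiO2, and that of neighbouring groups from 0 to 1. Counts over all genes moved further: 7 (6 libraries) to 743 (without CaP replicate 1) for CaP against M0, 0 (without M0 replicate 1) to 123 (DESeq2) for SiO2 against M0, 1 to 15 for CaP against SiO2, 98 to 1361 for M2 against M0, 1511 to 3394 for M1 against M0, 1377 to 4407 for M1 against M2, 1350 to 3882 for M1 against CaP and 1114 to 2434 for M1 against SiO2.

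Of the 30 pairs of same-numbered libraries, 14 deviated together with a correlation above 0.1 (-0.704 to 0.604). Among the 6 main comparisons, M1 against M0 was the only one in which all 3 numbers did, and there *Mt1* was still called with the replicate block (-0.81, adjusted p = 0.0261 from edgeR). With the replicate block the numbers called among the 9 genes were the same (1, 1, 2, 0, 0 and 0 in the 6 comparisons), and 28, 1 and 1 genes were called in the microrod comparisons instead of 68, 10 and 4.

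Log2 fold changes turned sign only in comparisons where the gene was not called. *Slc39a10* in M2 against M0 (-0.01) was 0.0014 with DESeq2's size factors, 0.026 without a filter, 0.015 with the legacy test and 0.0018 in 6 libraries. *Mt1* in CaP against SiO2 was 0.019 without a filter and *Slc39a6* in M1 against M2 was -0.011 in 6 libraries. Without 1 library the ranges were in M1 against M0 -0.44 to 0.14 for *Slc39a1*, -0.018 to 0.16 for *Slc39a10* and -0.25 to 0.078 for *Slc39a14*, and in M2 against M0 -0.32 to 0.034 for *Mt1*, -0.054 to 0.31 for *Mtf1*, -0.87 to 0.058 for *Slc39a1* and -0.080 to 0.089 for *Slc39a10*, and in M1 against M2 -0.38 to 0.049 for *Slc30a1*, -0.16 to 0.54 for *Slc39a1*, -0.21 to 0.18 for *Slc39a6* and -0.012 to 0.16 for *Slc39a10*, and in CaP against M0 -0.29 to 0.047 for *Mt1* and -0.68 to 0.031 for *Slc30a1*, and in SiO2 against M0 -0.089 to 0.054 for *Mt1*, -0.53 to 0.20 for *Slc30a1* and -0.082 to 0.13 for *Slc39a10*, and in CaP against SiO2 -0.26 to 0.068 for *Mt1*, -0.32 to 0.050 for *Slc30a1*, -0.26 to 0.024 for *Slc30a5* and -0.25 to 0.080 for *Slc39a6*.

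*Slc30a1* rested on the fewest counts of the 9 genes, 12 to 93 per library. For most genes, 3 libraries per group left intervals of 0.4 or wider on either side, so smaller changes could be missed. Larger changes could also go uncalled in the microrod comparisons. The macrophage marker *Itgam* in CaP against M0 had a log2 fold change of -0.99 with an adjusted p of 0.0869 in edgeR (0.00361 in DESeq2).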

Other observations

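Some zinc carriers differed more between the libraries of a group than between group means. In M2 replicate 2, *Slc39a7*, *Slc39a11* and *Slc39a13*, chosen after their values were seen, were at 0.395, 13.0 and 11.1 CPM, against at least 5.58, 31.2 and 27.6 CPM in the other M2 libraries. The same library was the highest of M2 for *Slc39a1* (1629 CPM), *Slc30a5* (20.1 CPM), *Mtf1* (21.6 CPM) and *Mt1* (1565 CPM). M0 replicate 1 had the lowest *Slc39a7*, *Slc39a11* and *Slc39a13* of its group (0.764, 9.27 and 16.4 CPM) and the highest *Slc39a1* (1820 CPM) and *Slc30a5* (19.3 CPM). The same 3 genes were lowest of their group in CaP replicate 1 (1.99, 16.5 and 14.0 CPM) and in M1 replicate 1 (2.32, 21.7 and 23.3 CPM). CaP replicate 1 had the highest *Mt1* of its group (1568 CPM) but the lowest *Slc39a1* (627 CPM). The differences of *Slc39a7*, *Slc39a11* and *Slc39a13* between groups were not recomputed without these libraries.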
